A study of Saccharomyces cerevisiae with 9 samples.

Results

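DGK1 encodes the diacylglycerol kinase of Saccharomyces cerevisiae, a membrane enzyme of the endoplasmic reticulum and nuclear envelope that uses CTP to turn diacylglycerol into phosphatidate. The enzyme works against Pah1, the phosphatidate phosphatase that makes diacylglycerol for storage fat. Phosphatidate is a precursor of membrane phospholipids, and in the textbook account it also holds the repressor Opi1 at the membrane, so that genes with an inositol-responsive promoter element can be transcribed. The comparison described here sets a strain without DGK1 (dgk1Δ) against wild type (WT), both in a prototrophic CEN.PK background, and asks how the transcriptome differs under ordinary growth. It compared 6 of the 9 libraries of the series, 3 of dgk1Δ and 3 of WT. The other 3 libraries came from a strain without PAH1 (pah1Δ). They entered the same model, so the p-values below also rest on the spread among them. All strains were grown to log phase in minimal medium with 2% glucose, with no further treatment, and poly(A) RNA was sequenced. The labels do not say whether the dgk1Δ strain was a single clone. They also do not state that the replicates were independent cultures, and the p-values therefore reflect only the variation among these libraries, which may be technical.

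In all 3 dgk1Δ libraries 2 blocks of neighbouring genes were raised together. The genes of both blocks stayed in the fit and in its adjustment of p-values. Below, they were left out unless a sentence says that they are included or names a gene in a block. One block lay on chromosome III (chrIII:15798-82275, build R64) and held 44 genes, of which 41 were tested, with a median log2 fold change of 1.02. The other lay on chromosome IX from position 325212 onward and held 74 genes, of which 63 were tested, with a median of 0.91. At their edges, CHA1 and KCC4 inside the chromosome III block had log2 fold changes of 0.88 and 1.13, against 0.31 for YCL019W just outside it. YIL014C-A inside the chromosome IX block had 0.83, against 0.13 for BAR1 just outside it. The left-out genes numbered 118 of 7122 in the table, which leaves 7004, of which 6046 had enough counts to be tested. Because every dgk1Δ library carried both the deletion and the raised blocks, their parts in any difference below cannot be told apart. Library totals ranged from 9205454 to 12795803 counts. Of the WT libraries, replicate 1 differed most from its group, with a chi-square per degree of freedom of 53.6 and 39.9, against 3.55 between WT replicates 2 and 3 and 4.97 to 7.07 among the dgk1Δ libraries. Across genes, its deviation from the WT mean was lower for longer genes (Spearman's rho -0.745), and the deviation was higher for longer genes in WT replicates 2 and 3 (0.694 and 0.605). The deviations of the WT libraries are taken from their shared mean, so these trends are not independent of each other.

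DGK1 itself matched the labels. DGK1 (YOR311C, chrXV:899056-899928, build R64, minus strand) had 1, 2 and 1 counts in the dgk1Δ libraries, or 0.119 ± 0.0324 CPM (counts scaled to a common library size with TMM factors), against 116.9 ± 10.6 CPM in WT (SD, n = 3 each). Scaled by library totals, the ratio of WT to dgk1Δ was 939, with an exact 95% interval of 367 to 3450 that covers counting error only. The genes on either side did not pass the test. NOP58, a component of box C/D small nucleolar ribonucleoproteins that overlaps YOR309C, gave a log2 fold change of -0.12 (edgeR adjusted p = 0.692). RPL20B, a ribosomal protein gene, gave -0.06 (adjusted p = 0.927). PAH1 had 50.3, 56.6 and 53.6 CPM in dgk1Δ and 42.1, 55.5 and 49.8 CPM in WT, so the groups overlapped (log2 fold change 0.13, adjusted p = 0.856). The mating type also matched between strains. The MATa-specific pheromone receptor STE2 had 769.0 ± 40.1 CPM in dgk1Δ and 825.7 ± 50.2 CPM in WT. The MATalpha pheromone gene MF(ALPHA)1 had 2.76 ± 0.286 and 2.61 ± 0.661 CPM. None of the 7 tested MATa-specific genes was called, with log2 fold changes of -0.57 to 0.26. Of the 4 tested MATalpha-specific genes, STE3 was called higher (1.02, edgeR adjusted p = 0.0050), where 0.281% of all tested genes rose. STE3 had 13.3 CPM in dgk1Δ and 6.52 CPM in WT.

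Outside the blocks few genes differed between dgk1Δ and WT, and the median log2 fold change was 0.00. A total of 34 genes, 0.562% of those tested, passed an adjusted p of 0.05 by edgeR's quasi-likelihood test. Of these, 17 were higher (0.281%) and 17 were lower (0.281%), with DGK1 among those that were lower. Over the whole table, blocks included, 118 genes passed (1.92%). Most changes were small: 12 of the 34 reached a fold of 2, 6 in each direction. The libraries of the 2 strains did not overlap at any of the 34 genes. This is no separate evidence, because the same values were used to call them. Over all tested genes outside the blocks, the share without overlap was 15.0%. The count depended on single libraries, and was 75 without WT replicate 1, 18 without dgk1Δ replicate 2 and 21 without WT replicate 3. It was 21, with 7 higher, in a fit of only the 2 strains, without the pah1Δ libraries. It was 22, all among the 34, when the genes of the blocks were taken out before the fit. The calls lost there were those of ARR1, HMX1, TPN1, PNC1, HSP42, SSE2, AIM17, SPO24, YLR297W, YOR062C, YLR256W-A and YNR075C-A.

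**Figure D1:**
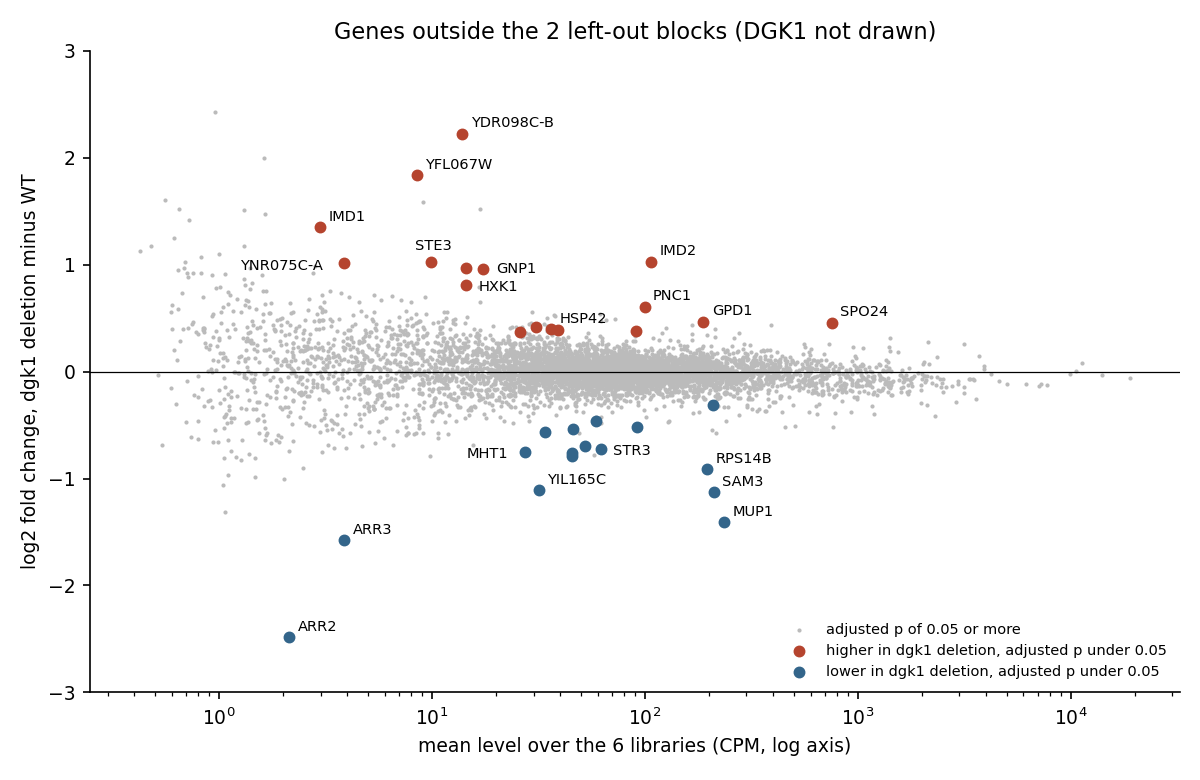
Each point is a gene outside the left-out blocks, placed by its mean level over the 6 libraries (CPM, log axis) and its log2 fold change (dgk1 deletion minus WT); coloured points passed an adjusted p of 0.05, and most of them are named. The lower genes include MUP1 at -1.41 and SAM3 at -1.13, and the higher ones include IMD2 at 1.03 and the Ty element gene YDR098C-B at 2.23.

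The permease genes MUP1, SAM3 and MMP1, for methionine, SAM and S-methylmethionine, fell in dgk1Δ. SAM is S-adenosylmethionine, and these compounds enter budding yeast through separate permeases and feed the methyl cycle. The list for uptake of methionine, SAM and sulfur compounds also holds the methyltransferases MHT1 and SAM4, which are not transporters. Of its 9 tested genes, 4 fell, MHT1 among them, and none rose, where 0.281% of all tested genes fell. The list was chosen with earlier results known and holds MUP1 and SAM3, which were chosen to mark this comparison. The median log2 fold change of the list was -0.31, against 0.00 over all genes, and the list was also below the WT mean in each pah1Δ library. MUP1 (YGR055W, chrVII:599417-601141, plus strand), the high-affinity methionine permease, had 132.8, 131.4 and 121.8 CPM in dgk1Δ, against 338.3, 342.5 and 345.3 CPM in WT. The 3 dgk1Δ libraries lay far below the 3 WT libraries, and the log2 fold change was -1.41 (SE 0.103, adjusted p = 2.4e-05), which is 2.66-fold lower. SAM3 (YPL274W, chrXVI:22938-24701, plus strand), the SAM permease, had 124.4, 132.3 and 141.0 CPM in dgk1Δ, against 275.4, 296.5 and 297.1 CPM in WT. These values did not overlap either (log2 fold change -1.13, SE 0.0746, adjusted p = 1.6e-05).

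A divergent pair of genes on chromosome XII serves S-methylmethionine, a plant-derived sulfur source. MMP1 (YLL061W, chrXII:17956-19707, plus strand), its permease, had 40.3, 38.9 and 40.8 CPM in dgk1Δ, against 65.7, 63.6 and 64.6 CPM in WT (log2 fold change -0.69, SE 0.076, adjusted p = 3.2e-04). MHT1 (YLL062C, chrXII:16639-17613, minus strand), the methyltransferase that uses S-methylmethionine to make methionine, had 20.3 ± 1.58 CPM in dgk1Δ and 34.2 ± 2.2 CPM in WT (SD, n = 3 each; log2 fold change -0.75, SE 0.101, adjusted p = 0.0014). In both genes every dgk1Δ library was below every WT library. The other 5 members of the list did not pass. These were the low-affinity permease MUP3 (-0.09), the sulfate permeases SUL1 (-0.20) and SUL2 (0.09), the cysteine transporter YCT1 (-0.31) and the methyltransferase SAM4 (0.09), with adjusted p-values of 0.36 to 0.95.

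The enzymes that make sulfide from sulfate gave no call. None of the 10 tested sulfate assimilation genes passed, and their median log2 fold change was -0.03. MET3, the ATP sulfurylase, had 1070 ± 89.7 CPM in dgk1Δ and 1031 ± 156 CPM in WT (SD, n = 3 each). MET17, which joins sulfide to O-acetylhomoserine, had 2930 ± 239 CPM in dgk1Δ and 3373 ± 137 CPM in WT (log2 fold change -0.20, adjusted p = 0.54). In the methyl cycle and transsulfuration list 1 of 15 tested genes fell, where 0.281% of all tested genes fell. This was STR3 (YGL184C, chrVII:154615-156012, minus strand), the peroxisomal cystathionine beta-lyase, with 43.3, 49.5 and 47.6 CPM in dgk1Δ against 64.8, 80.8 and 86.6 CPM in WT (log2 fold change -0.72, SE 0.11, adjusted p = 0.0037). The SAM synthetase SAM1 (-0.32, adjusted p = 0.23) and the methionine synthase MET6 (-0.12, adjusted p = 0.89) did not pass. None of the 5 tested regulators of sulfur metabolism outside the blocks passed, among them the activator MET4 (-0.01) and its DNA-binding partners CBF1 (0.05), MET31 (-0.25) and MET32 (-0.21). A sixth regulator, MET28, lies in the left-out block on chromosome IX and overlaps YIR017W-A. It had 15.1 ± 1.29 CPM in dgk1Δ and 9.49 ± 2.11 CPM in WT (adjusted p = 0.132), and its part in these results was not tested.

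**Figure D2:**
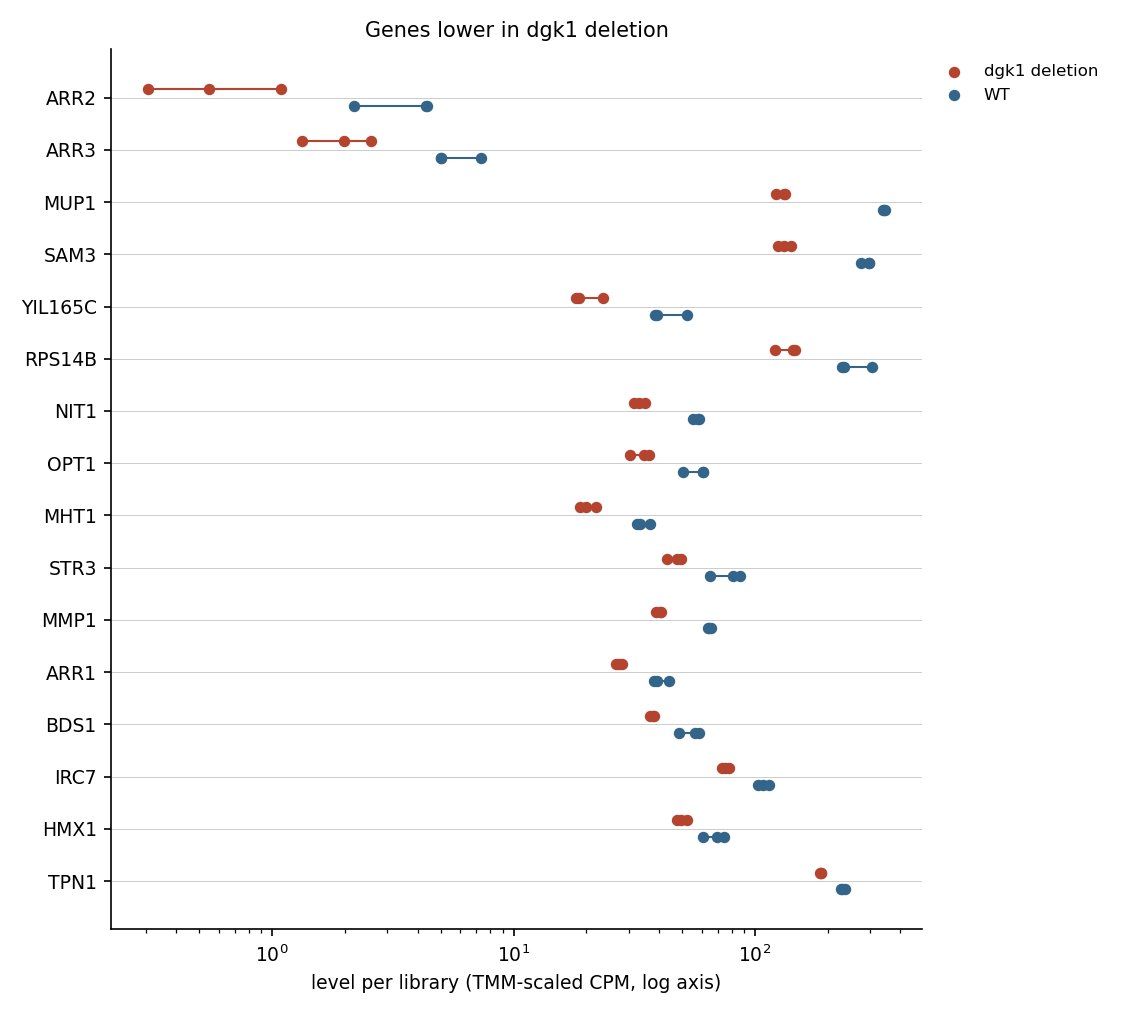
Each row is one of the 16 genes called lower other than DGK1, with the level of each library in TMM-scaled CPM on a log axis; the dgk1 deletion libraries are drawn above the WT libraries. The 3 dgk1 deletion libraries of MUP1 sit between 121.8 and 132.8 CPM and those of WT between 338.3 and 345.3 CPM, and in no row do the groups overlap.

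Other lower genes also act on sulfur compounds, although they were on none of the lists and are named because they passed. OPT1 (YJL212C, chrX:33850-36249), which transports glutathione and oligopeptides, had 36.4, 34.6 and 30.3 CPM in dgk1Δ against 50.5, 60.7 and 61.0 CPM in WT (log2 fold change -0.76, adjusted p = 0.0055). IRC7 (YFR055W), a cysteine desulfhydrase gene that overlaps YFR056C, averaged 75.4 ± 2.49 CPM in dgk1Δ and 108.0 ± 5.48 CPM in WT (SD, n = 3 each), a log2 fold change of -0.52. BDS1 (YOL164W), an alkyl and aryl sulfatase, averaged 37.6 ± 0.721 CPM in dgk1Δ and 54.5 ± 5.23 CPM in WT (log2 fold change -0.54, adjusted p = 0.0073). The BDS1 call was lost without dgk1Δ replicate 2 (adjusted p = 0.0555). OPT1, IRC7, STR3, MMP1, MHT1, SAM3 and MUP1 passed under every one of the 17 alternatives run.

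The promoters of the lower genes are shown for the letters bound by the known sulfur regulators. The windows run from 250 bases before to 50 bases after the start codon on the R64 reference, which is not the CEN.PK strain sequenced. Capitals mark the core of the Met31 and Met32 element (TGTGGC, or GCCACA on the other strand), the Cbf1 core (CACGTG) and the Gcn4 core (TGACTC, or GAGTCA). MMP1 and MHT1 share the 342 bases between them (chrXII:17614-17955), and both TGTGGC matches there fall in the windows of both genes, so that only the MMP1 window is printed. The genes shown are the leading permease and 4 lower genes that hold a match.
MUP1 (chrVII:599167-599466, plus strand): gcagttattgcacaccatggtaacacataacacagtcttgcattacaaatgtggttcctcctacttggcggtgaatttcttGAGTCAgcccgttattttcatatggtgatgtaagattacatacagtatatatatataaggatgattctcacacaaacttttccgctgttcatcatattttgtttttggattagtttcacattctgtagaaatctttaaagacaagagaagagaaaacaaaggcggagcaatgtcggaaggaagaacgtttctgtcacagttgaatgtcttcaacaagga
MMP1 (chrXII:17706-18005, plus strand): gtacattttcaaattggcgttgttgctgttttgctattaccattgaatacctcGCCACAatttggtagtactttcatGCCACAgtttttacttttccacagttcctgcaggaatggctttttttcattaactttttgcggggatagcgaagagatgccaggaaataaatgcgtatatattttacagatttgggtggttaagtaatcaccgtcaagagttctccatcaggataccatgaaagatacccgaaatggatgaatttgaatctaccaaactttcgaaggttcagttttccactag
STR3 (chrVII:155963-156262, minus strand): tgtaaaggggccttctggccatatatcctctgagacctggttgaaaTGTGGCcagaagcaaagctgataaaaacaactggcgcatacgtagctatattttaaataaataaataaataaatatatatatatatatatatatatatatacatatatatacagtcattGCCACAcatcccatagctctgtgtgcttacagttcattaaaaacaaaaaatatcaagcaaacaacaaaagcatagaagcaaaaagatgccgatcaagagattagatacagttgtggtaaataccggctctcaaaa
OPT1 (chrX:36200-36499, minus strand): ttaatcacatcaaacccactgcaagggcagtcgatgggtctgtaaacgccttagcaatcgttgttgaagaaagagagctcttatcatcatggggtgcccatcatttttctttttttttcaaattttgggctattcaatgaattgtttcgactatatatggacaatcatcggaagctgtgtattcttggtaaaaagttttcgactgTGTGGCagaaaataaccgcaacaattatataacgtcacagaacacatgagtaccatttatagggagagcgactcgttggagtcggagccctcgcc
NIT1 (chrIX:34637-34936, minus strand): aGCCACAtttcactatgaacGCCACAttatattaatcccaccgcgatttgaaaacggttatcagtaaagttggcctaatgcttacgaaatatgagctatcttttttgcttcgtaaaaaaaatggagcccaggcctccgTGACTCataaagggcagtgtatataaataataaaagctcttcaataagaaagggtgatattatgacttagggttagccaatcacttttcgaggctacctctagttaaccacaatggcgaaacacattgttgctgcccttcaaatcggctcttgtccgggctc

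The Met31 and Met32 core stood in 6 of the 16 lower windows other than that of DGK1 (37.5%), namely those of MMP1, MHT1, STR3, OPT1, NIT1 and BDS1, and in 7.91% of all 6044 windows of tested genes. Among the 17 higher genes it stood in 1 window (5.88%). The 2 matches shared by MMP1 and MHT1 begin 197 and 173 bases before the MMP1 start codon, and those of STR3 begin 204 and 85 bases before its start. MUP1 held no such match in its window and held the Gcn4 core 169 bases before its start, a motif found in 3 of the 16 lower windows and in 8.29% of all windows. The Cbf1 core was in none of the 16 lower windows, in 2.88% of all windows, and in 5 of the 10 sulfate assimilation windows. The sulfate assimilation genes, none of which passed, held the Met31 and Met32 core in 4 of 10 windows. A match describes the letters in the window and not a bound site. The GATA core (GATAAG, or CTTATC) stood in 3 of the 16 lower windows, 1 of the 17 higher ones and 14.4% of all windows, and a TATA box form (TATAAA, or TTTATA) in 10, 8 and 44.6%. In the windows of called genes 0 matches of different motifs overlapped, out of 7 motifs searched on both strands.

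Further lower genes lay in small clusters. ARR1, ARR2 and ARR3 stand next to each other near the right end of chromosome XVI and serve arsenic resistance, as the activator, the arsenate reductase and the arsenite exporter. ARR1 (YPR199C, chrXVI:938148-939032) had 27.3, 26.5 and 28.1 CPM in dgk1Δ, against 43.9, 39.1 and 38.1 CPM in WT (log2 fold change -0.57, adjusted p = 0.010). ARR2 had 1.09, 0.548 and 0.307 CPM in dgk1Δ and 4.34, 2.18 and 4.39 CPM in WT (log2 fold change -2.48, adjusted p = 0.0088). ARR3 averaged 1.96 ± 0.612 CPM in dgk1Δ and 5.79 ± 1.36 CPM in WT (SD, n = 3 each), a log2 fold change of -1.58 (adjusted p = 0.0083). All 3 genes were low in each dgk1Δ library, and ARR2 and ARR3 rest on few counts in both strains. The highest adjusted p over the alternatives was 0.0713 for ARR1, 0.0698 for ARR2 and 0.0509 for ARR3, the last in the fit of only the 2 strains, where ARR2 also lost its call. ARR1 and ARR2 lost the call without dgk1Δ replicate 2, and ARR1 also without dgk1Δ replicate 1 and without the genes of the blocks.

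On the left arm of chromosome IX, the nitrilase gene NIT1 (YIL164C, chrIX:34087-34686) had 33.2, 31.4 and 34.8 CPM in dgk1Δ, against 55.4, 58.6 and 58.3 CPM in WT (log2 fold change -0.79, SE 0.0806, adjusted p = 1.8e-04). The adjacent YIL165C, annotated beside it, had 18.1, 18.7 and 23.5 CPM in dgk1Δ against 52.0, 39.1 and 38.6 CPM in WT (log2 fold change -1.11, adjusted p = 0.0040). YIL163C, the next gene inward, gave -0.59 and did not pass (adjusted p = 0.101). RPS14B, one of a pair of genes for the small-subunit ribosomal protein uS11, had 143.2, 120.7 and 146.1 CPM in dgk1Δ against 305.8, 229.9 and 234.6 CPM in WT (log2 fold change -0.91, adjusted p = 0.0017). Its paralog RPS14A had 1343, 1265 and 1400 CPM in dgk1Δ and 1928, 1222 and 1278 CPM in WT, with overlapping groups (-0.14, adjusted p = 0.894). The handling of reads that match both copies is not given in the sources used here, so the RPS14B value is uncertain. The remaining lower genes changed little. HMX1, the heme oxygenase and the 1 called member of 24 tested iron-regulated genes, gave -0.46. TPN1, the pyridoxine transporter and the 1 called gene of 13 tested permeases for nucleobases, nucleosides and vitamins, gave -0.31. Of all tested genes, 0.281% were called lower. The calls of HMX1 and TPN1 were lost without any 1 of several libraries (dgk1Δ replicates 1, 2 and 3 and WT replicate 3 for both, and WT replicate 2 for TPN1), with adjusted p-values up to 0.239 and 0.189.

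A part of the called genes lay near chromosome ends. Of the 34 genes, 13 lay within 30000 bases of a chromosome end (38.2%), 8 of them lower and 5 higher, against 308 of the 6046 tested genes (5.09%). The distance was set after the values had been seen. SAM3 began 22937 bases from its end, MHT1 16638 bases and MMP1 17955 bases, while MUP1 lay 489799 bases from the nearest end. BDS1 and IRC7 lay 6174 and 4935 bases from theirs. The 5 higher genes were YFL067W, IMD1, YNR075C-A, IMD2 and HXK1, at 835, 1265, 2730, 6676 and 15112 bases.

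Among the higher genes, IMD2 had the largest change of those at a mean of at least 10 CPM with a standard symbol. IMD2 (YHR216W, chrVIII:554396-555967, plus strand) encodes an IMP dehydrogenase, the enzyme of the first step from IMP toward GTP, and is known for a rise in transcription when guanine nucleotides fall. It had 157.8, 129.3 and 142.3 CPM in dgk1Δ, against 73.7, 58.1 and 78.8 CPM in WT. The lowest dgk1Δ library was above the highest WT library, and the log2 fold change was 1.03 (SE 0.118, adjusted p = 4.8e-04). IMD1, a near-identical copy with 96.7% identity that overlaps YAR075W, gave 1.35 at 4.28 ± 0.59 CPM in dgk1Δ and 1.68 ± 0.171 CPM in WT (SD, n = 3 each, adjusted p = 0.012). Reads could have been shared between IMD1 and IMD2, so neither value stands alone, and the IMD1 call was lost without dgk1Δ replicate 1 or 2 or WT replicate 3 (adjusted p up to 0.0645). IMD2 was the 1 called gene of 5 on the list of IMP dehydrogenases and GMP synthesis, where 0.281% of all tested genes rose. IMD2 was chosen to mark this comparison, so that share is no separate evidence. The other dehydrogenases IMD3 (0.05) and IMD4 (-0.17), the GMP synthase GUA1 (-0.10) and the guanylate kinase GUK1 (-0.07) did not pass. None of 14 genes for purine synthesis to IMP and AMP passed (median 0.03), nor did any of 12 for pyrimidine and CTP synthesis (median -0.08), the pathway that makes the CTP used by Dgk1.

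**Figure D3:**
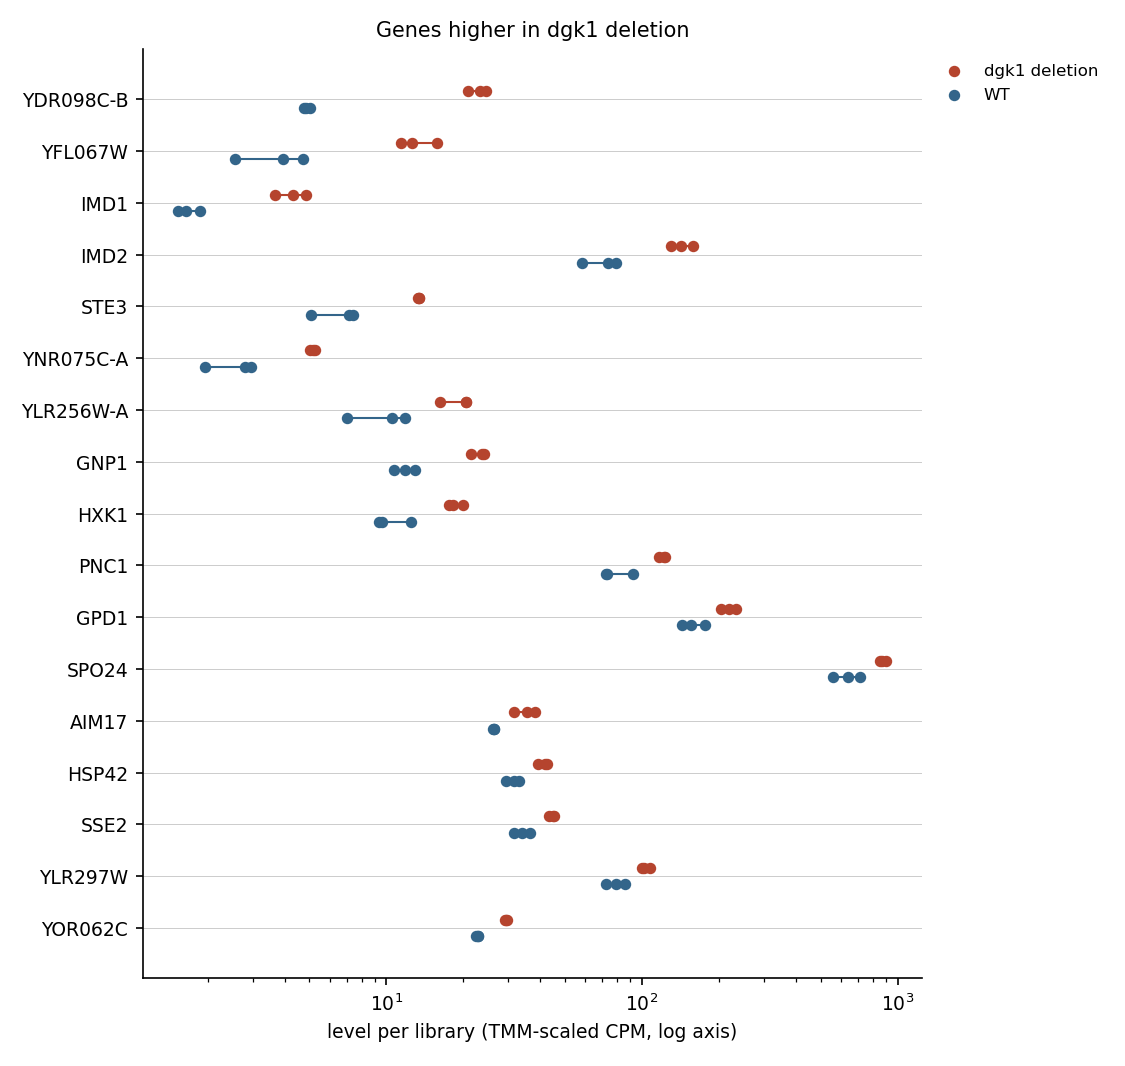
Each row is one of the 17 genes called higher, with the level of each library in TMM-scaled CPM on a log axis; the dgk1 deletion libraries are drawn above the WT libraries. IMD2 spans 129.3 to 157.8 CPM in dgk1 deletion and 58.1 to 78.8 CPM in WT, and in no row do the groups overlap.

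A few higher genes encode transporters, receptors and enzymes. GNP1 (YDR508C, overlapping YDR509W), a glutamine permease, had 24.0, 23.7 and 21.4 CPM in dgk1Δ against 10.7, 13.0 and 11.9 CPM in WT (log2 fold change 0.96, SE 0.13, adjusted p = 0.0015). It was the 1 called gene among 15 tested amino acid permeases, where 0.281% of all tested genes rose. STE3 (YKL178C, overlapping YKL177W), the receptor for a-factor in MATalpha cells, had 13.4, 13.2 and 13.4 CPM in dgk1Δ against 7.15, 7.37 and 5.05 CPM in WT (log2 fold change 1.02, adjusted p = 0.0050). The other MATalpha-specific genes did not pass, and both strains kept the MATa genes high. HXK1, a hexokinase gene that overlaps YFR052C-A, had 19.9, 17.6 and 18.2 CPM in dgk1Δ against 12.5, 9.65 and 9.33 CPM in WT (log2 fold change 0.81, adjusted p = 0.0050, and 0.0509 in the fit of only the 2 strains). PNC1, the nicotinamidase of NAD salvage, had 121.7, 116.8 and 123.2 CPM in dgk1Δ against 92.0, 72.3 and 72.9 CPM in WT (log2 fold change 0.61, adjusted p = 0.021). It was the 1 called gene of 13 for NAD synthesis and salvage (background 0.281% higher).

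GPD1 (YDL022W, overlapping YDL023C), the NAD-dependent glycerol-3-phosphate dehydrogenase that supplies the backbone of phosphatidate and glycerol, had 203.4, 233.9 and 218.2 CPM in dgk1Δ against 143.3, 175.8 and 155.0 CPM in WT (log2 fold change 0.47, SE 0.0855, adjusted p = 0.014). All dgk1Δ libraries were above all WT libraries. GUT2, the mitochondrial dehydrogenase that takes glycerol 3-phosphate back, gave 0.53 and missed the threshold (adjusted p = 0.058). The smallest rises were those of SPO24 (0.46), AIM17 (0.42), the small heat-shock protein HSP42 (0.40), the chaperone SSE2 (0.39), YLR297W (0.38) and YOR062C (0.37). Each of these lost its call without dgk1Δ replicate 2, dgk1Δ replicate 3, WT replicate 2 or WT replicate 3, with adjusted p-values up to 0.291. Calls were also lost in other alternatives. Of all 17, SSE2 passed in 2, YOR062C in 6, SPO24 and YLR297W in 8, and HSP42 and AIM17 in 9. GPD1 lost its call without dgk1Δ replicate 2 or 3 or WT replicate 3 (up to 0.0925), and PNC1 without any library other than WT replicate 1 (up to 0.16). IMD2, GNP1, STE3 and YDR098C-B passed under all 17 alternatives.

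Repeated sequences supplied other high values, chosen for mention after they had passed. YDR098C-B, a gene of a Ty element (retrotransposon), had 20.9, 23.2 and 24.5 CPM in dgk1Δ against 5.02, 4.77 and 4.83 CPM in WT (log2 fold change 2.23, SE 0.132, adjusted p = 9.8e-06). It has 30 near-identical copies in the reference and overlaps YDR098C-A. YLR256W-A, a Ty gene with 55 such copies, gave 0.97 (adjusted p = 0.036). YFL067W, at the left end of chromosome VI with 2 such copies, gave 1.84, at 13.3 ± 2.31 CPM in dgk1Δ and 3.74 ± 1.1 CPM in WT (SD, n = 3 each). YNR075C-A, with 2 copies near another chromosome end, gave 1.01 at 5.14 ± 0.126 CPM in dgk1Δ and 2.57 ± 0.539 CPM in WT. Which copy produced these reads cannot be told apart. The calls of YLR256W-A and YNR075C-A were lost without any 1 dgk1Δ library or WT replicate 3 (and WT replicates 1 and 2 for YNR075C-A), with adjusted p-values up to 0.187 and 0.157.

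The other enzymes of the phosphatidate and diacylglycerol cycle gave no call. Of the 6 genes other than DGK1 on that list, none passed, and the median log2 fold change was 0.02. NEM1 and SPO7, the phosphatase complex that activates Pah1, gave -0.23 (adjusted p = 0.37) and 0.01 (0.99). The other phosphatases DPP1, LPP1 and APP1 gave -0.02, 0.19 and 0.03. None of 15 genes of storage and use of triacylglycerol and steryl esters passed (median 0.05). DGA1, the acyltransferase of triacylglycerol, had 55.5 ± 0.302 CPM in dgk1Δ and 56.5 ± 2.76 CPM in WT, and LRO1, which uses phospholipid for the same step, had 88.8 ± 0.7 and 75.0 ± 10.2 CPM (SD, n = 3 each). Of 8 genes for phosphatidate synthesis, GPD1 was called (background 0.281% higher), and the acyltransferases GPT2 (0.23), SCT1 (0.07), SLC1 (0.03) and ALE1 (0.13) were not. None passed among 16 genes of fatty acid synthesis, 25 of ergosterol synthesis or 26 of sphingolipid metabolism.

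The 19 phospholipid genes listed as having inositol-responsive promoters gave no call, yet 18 of their 19 log2 fold changes were below 0, against 2976 of the 6046 tested genes. Their median was -0.32 and was the lowest of the 40 lists. For 8 of the 19 every dgk1Δ library was below every WT library, against 7.31% of all tested genes. The dgk1Δ libraries differed among themselves. Relative to the WT mean, the median of the list on the log2 scale was -0.10, -0.45 and -0.40 in dgk1Δ replicates 1, 2 and 3, and -0.04, -0.04 and 0.06 in WT replicates 1, 2 and 3. Replicate 1 of dgk1Δ therefore lay near the WT libraries, and the other dgk1Δ libraries lay below them.

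INO1, the inositol-3-phosphate synthase, showed this most plainly, with 355.1, 80.4 and 154.0 CPM in dgk1Δ and 171.9, 229.8 and 335.9 CPM in WT. The highest of the 6 values and the lowest were both from dgk1Δ (log2 fold change -0.32, adjusted p = 0.92). OPI3, the phospholipid methyltransferase of the last steps to phosphatidylcholine, had 558.0, 295.1 and 406.9 CPM in dgk1Δ and 745.0, 458.6 and 593.4 CPM in WT, with overlapping groups (-0.51, adjusted p = 0.50). The choline transporter HNM1 had 622.2, 497.5 and 541.8 CPM in dgk1Δ and 710.1, 707.2 and 765.5 CPM in WT, without overlap (-0.39, adjusted p = 0.085). CHO2, which starts the methylation route, gave -0.38 (adjusted p = 0.15), the inositol transporter ITR1 -0.42 (0.34), and the CDP-diacylglycerol synthase CDS1 -0.35 (0.15). The activators INO2 (-0.33) and INO4 (-0.32) and the repressor OPI1 (-0.36) had values like those of the enzymes. The exception was PSD2, at 0.03. Without dgk1Δ replicate 1 the median of the list was -0.43 and 4 members passed. Without WT replicate 1 it was -0.33 and 3 passed, and DESeq2 called 4. With the trend by gene length removed, the median was -0.35 and 3 passed. With the replicate number added to that fit, the median was -0.35 and 2 passed. It was -0.23 without WT replicate 3, -0.26 without dgk1Δ replicate 2, -0.29 without dgk1Δ replicate 3 and -0.35 without WT replicate 2, each with 0 members passing. The core CATGTGA stood in 10 of the 19 promoter windows (52.6%) and in 2.05% of all windows, and in none of those of the called genes.

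**Figure D4:**
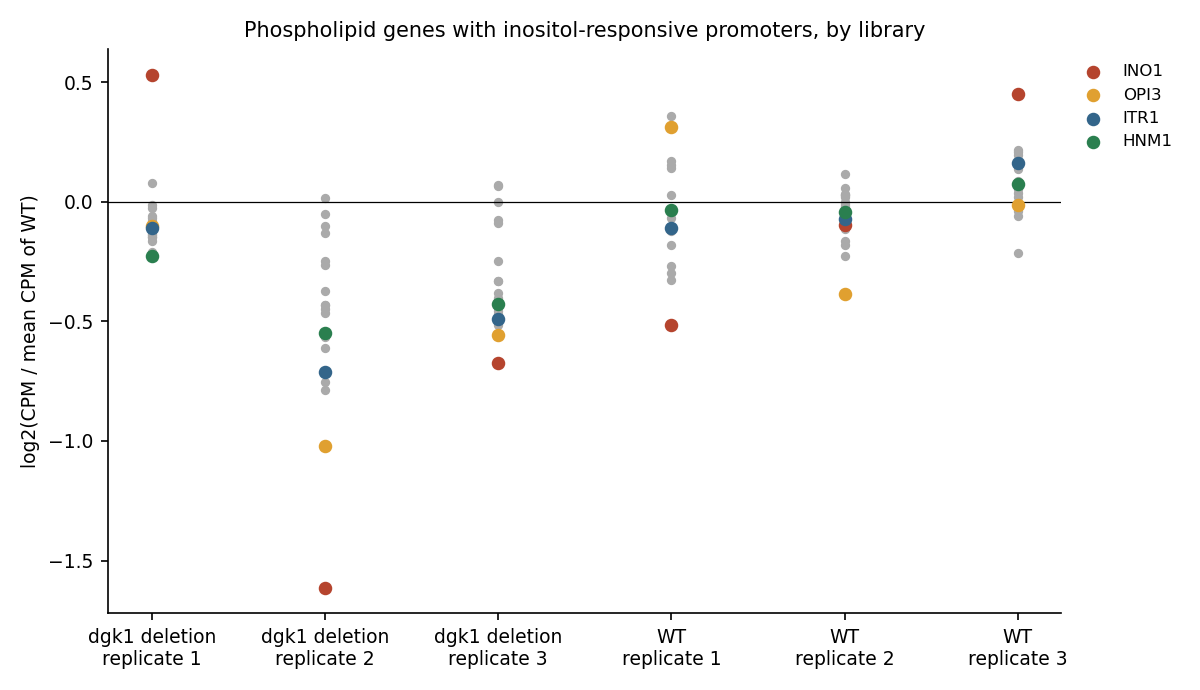
Each column is a library and each point a gene listed with an inositol-responsive promoter, as log2 of its CPM over the mean CPM of WT; grey points are members other than the 4 coloured ones. The points of dgk1 deletion replicate 1 lie around -0.10 at their median, near those of the WT libraries, and those of replicates 2 and 3 lie around -0.45 and -0.40.

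Stress and heat-shock genes had mostly positive log2 fold changes in dgk1Δ, with few calls. Of 35 tested general stress genes, 3 rose (HXK1, PNC1 and HSP42) and none fell, where 0.281% of all tested genes rose. The list had a median log2 fold change of 0.30, the highest of the 40 lists, and 32 positive values. In 14 of the 35, every dgk1Δ library was above every WT library, against 7.67% of all tested genes. The trehalose and catalase genes TPS1 (0.24) and CTT1 (0.51) and the disaggregase HSP104 (0.40, adjusted p = 0.088) did not pass. Relative to the WT mean, the list's median was 0.24, 0.24 and 0.31 in the dgk1Δ libraries, against 0.17, -0.07 and -0.09 in WT replicates 1, 2 and 3, so that WT replicate 1 lay nearest to dgk1Δ. Another member, the glucokinase GLK1, lies in the left-out block on chromosome III. Of 25 Hsf1 chaperone genes, HSP42 and SSE2 rose (background 0.281%), 23 values were positive and the median was 0.16. None of the 25 passed in the fit of only the 2 strains or without the genes of the blocks. The same held without any 1 dgk1Δ library and without WT replicate 3. Of 55 tested ribosome biogenesis genes, 53 had values below 0, with a median of -0.11 and no call, and in 22 of them every dgk1Δ library was below every WT library, against 7.31% of all tested genes.

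**Figure D5:**
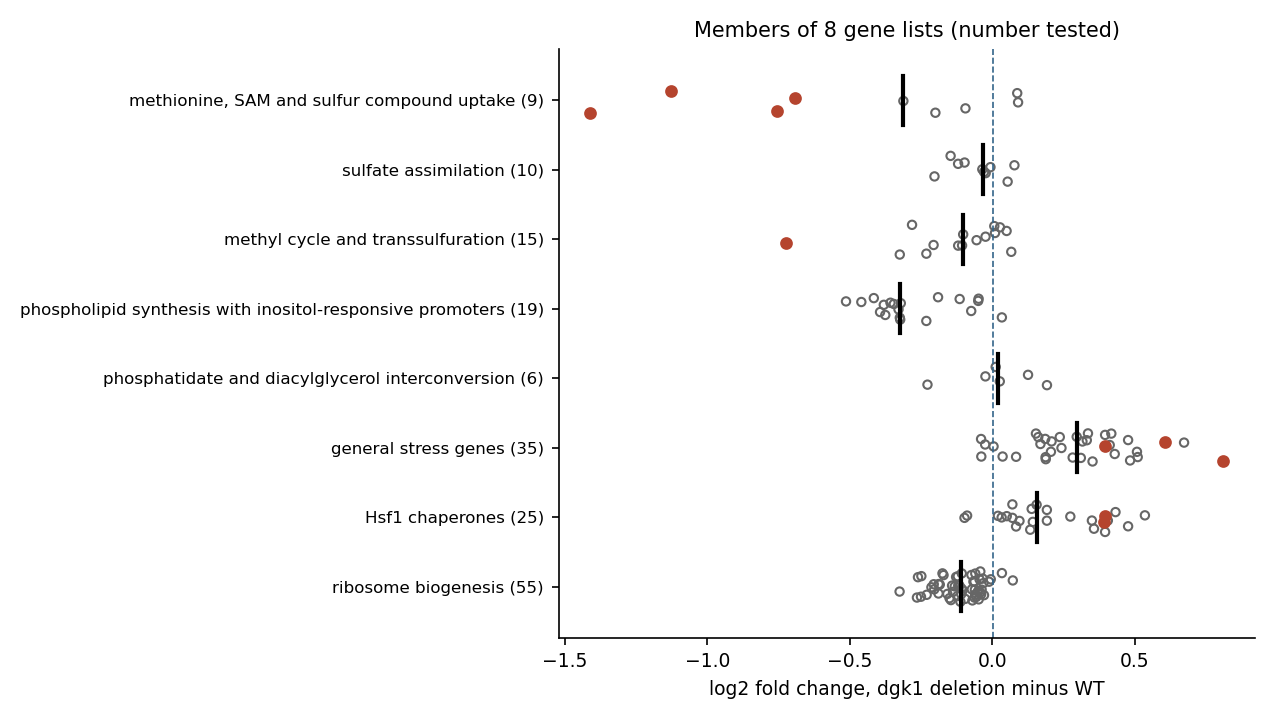
Each circle is a tested gene outside the left-out blocks, placed by its log2 fold change (dgk1 deletion minus WT) in 8 of the 40 lists; filled circles passed an adjusted p of 0.05, black bars mark list medians and the dashed line the median of all genes. The sulfur uptake list holds 4 filled circles, down to -1.41, while the sulfate assimilation list clusters around its median of -0.03.

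The letters of the stress response element (AGGGG, or CCCCT on the other strand) stood in 8 of the 17 higher windows (47.1%), in 5 of the 16 lower windows (31.2%), in 24 of the 35 general stress windows (68.6%) and in 21.7% of all windows. The windows of HSP42, PNC1 and GPD1 are shown as 3 examples from the higher genes that hold it, with the matches in capitals. The nearest match began 182 bases before the start codon of HSP42, 228 bases before that of PNC1 and 34 bases before that of GPD1.
HSP42 (chrIV:806371-806670, plus strand): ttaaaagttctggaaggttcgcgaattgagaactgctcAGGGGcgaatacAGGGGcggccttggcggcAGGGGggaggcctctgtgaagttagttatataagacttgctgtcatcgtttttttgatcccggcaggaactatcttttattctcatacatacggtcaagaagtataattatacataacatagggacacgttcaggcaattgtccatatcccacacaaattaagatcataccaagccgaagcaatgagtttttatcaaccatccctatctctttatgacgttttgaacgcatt
PNC1 (chrVII:427898-428197, minus strand): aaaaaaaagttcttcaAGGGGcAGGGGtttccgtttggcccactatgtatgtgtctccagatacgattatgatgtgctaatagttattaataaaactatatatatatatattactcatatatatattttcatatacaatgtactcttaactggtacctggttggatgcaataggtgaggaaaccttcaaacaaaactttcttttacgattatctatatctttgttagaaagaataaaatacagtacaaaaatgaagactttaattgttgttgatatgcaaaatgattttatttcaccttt
GPD1 (chrIV:411575-411874, plus strand): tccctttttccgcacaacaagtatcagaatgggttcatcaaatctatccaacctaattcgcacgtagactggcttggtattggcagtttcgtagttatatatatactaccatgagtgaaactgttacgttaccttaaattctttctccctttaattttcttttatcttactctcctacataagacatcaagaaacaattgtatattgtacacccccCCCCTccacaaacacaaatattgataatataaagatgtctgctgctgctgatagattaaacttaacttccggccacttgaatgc

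Across all 40 lists, chosen with earlier results of these data known, 715 distinct genes were tested outside the blocks. Of these, 15 passed, 8 higher and 7 lower, where 0.562% of all tested genes outside the blocks passed. The 15 genes were in 11 lists, and 29 lists held none. List medians ranged from -0.32 to 0.30. Lists without a called member include the unfolded protein response (20 tested, median 0.06), the tricarboxylic and glyoxylate cycles (28, 0.05), the respiratory chain and ATP synthase (36, -0.03), glycolysis (23, -0.02), the nuclear pore and nuclear envelope (31, -0.01), autophagy (22, 0.14), the phosphate starvation regulon (19, 0.04) and zinc uptake (15, 0.02). The same held for arginine synthesis and use (12, 0.01), branched-chain amino acid synthesis (12, -0.01), lysine, histidine and aromatic amino acid synthesis (19, -0.02), ammonium uptake and nitrogen-regulated genes (20, 0.02), and thiamine and pyridoxine genes (19, -0.05). It also held for hexose transporters and sensors (14, 0.15), cell wall proteins (33, 0.05), histones (10, -0.18), MATa-specific genes (7, -0.06) and shared mating pathway genes (12, 0.03). A gene that missed the threshold is not shown to be the same in both strains.

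The pah1Δ strain lacks the opposing enzyme, and the 2 deletion strains could be compared directly in the same model, with 1451 of 6046 genes outside the blocks called (24.0%), 576 higher in dgk1Δ (9.53%) and 875 lower (14.5%). Both strains are also set against the same WT libraries, so the values are given side by side. MUP1 averaged 128.7 ± 5.98 CPM in dgk1Δ, 281.5 ± 43.3 CPM in pah1Δ and 342.0 ± 3.49 CPM in WT (SD, n = 3 each), and dgk1Δ was lower than pah1Δ by a log2 fold change of -1.13 (adjusted p = 2.0e-05). SAM3 averaged 132.6 ± 8.29 CPM in dgk1Δ, 193.7 ± 10.7 CPM in pah1Δ and 289.7 ± 12.4 CPM in WT, and was lower than WT in both deletion strains (-1.13 in dgk1Δ and -0.58 in pah1Δ, adjusted p = 2.1e-04 for pah1Δ) and lower in dgk1Δ than in pah1Δ (-0.55, adjusted p = 3.5e-04). IMD2 averaged 143.2 ± 14.3 CPM in dgk1Δ, 75.1 ± 3.91 CPM in pah1Δ and 70.2 ± 10.8 CPM in WT, and was higher in dgk1Δ than in pah1Δ (0.93, adjusted p = 2.1e-04).

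GNP1 and HMX1 stood on opposite sides of WT in the 2 deletion strains. GNP1 averaged 23.0 ± 1.44 CPM in dgk1Δ, 4.73 ± 0.608 CPM in pah1Δ and 11.9 ± 1.12 CPM in WT (SD, n = 3 each), with a log2 fold change of 2.28 for dgk1Δ minus pah1Δ (adjusted p = 1.9e-06). HMX1 averaged 49.6 ± 2.45 CPM in dgk1Δ, 139.4 ± 11.6 CPM in pah1Δ and 68.2 ± 7.04 CPM in WT, with -1.49 for dgk1Δ minus pah1Δ (adjusted p = 2.8e-06). The stress-related genes rose in both deletion strains and less in dgk1Δ: HXK1 was at 18.6 ± 1.23 CPM in dgk1Δ, 65.5 ± 4.57 CPM in pah1Δ and 10.5 ± 1.76 CPM in WT, with -1.82 for dgk1Δ minus pah1Δ (adjusted p = 2.2e-06). HSP42, PNC1, GPD1 and SSE2 were likewise lower in dgk1Δ than in pah1Δ, by -1.65, -0.96, -0.81 and -1.27 on the log2 scale (adjusted p of 3.3e-07 to 1.5e-04). OPT1 and TPN1 fell in both deletion strains, and their log2 levels in dgk1Δ and pah1Δ differed by 0.05 (adjusted p = 0.81) and 0.06 (0.59).

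Other genes called in dgk1Δ also differed from WT in the same direction in pah1Δ. The uptake list as a whole had medians relative to the WT mean of -0.57, -0.20 and -0.26 in the dgk1Δ libraries, -0.32, -0.58 and -0.24 in the pah1Δ libraries and -0.06, 0.03 and 0.01 in the WT libraries (log2 scale). MMP1 averaged 40.0 ± 0.941 CPM in dgk1Δ, 51.5 ± 3.09 CPM in pah1Δ and 64.7 ± 1.06 CPM in WT (SD, n = 3 each), with -0.33 for pah1Δ minus WT (adjusted p = 0.0080). It was lower in dgk1Δ than in pah1Δ (-0.37, adjusted p = 0.0053). NIT1 gave -0.37 for pah1Δ minus WT (adjusted p = 0.0057) and was lower in dgk1Δ than in pah1Δ (-0.42, adjusted p = 0.0032). STE3 rose by 1.41 in pah1Δ (adjusted p = 1.0e-04) and YNR075C-A by 1.28 (0.0012), and for neither did dgk1Δ and pah1Δ differ past the threshold (adjusted p = 0.086 and 0.35). YFL067W rose by 1.06 in pah1Δ (adjusted p = 0.0065) and was higher in dgk1Δ than in pah1Δ (0.78, adjusted p = 0.018).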

How the data were processed

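The deposited table held unnormalized whole-number read counts for each gene and library, per the file headers, beside FPKM values that the authors had computed. Per the submitters' processing notes, HISAT2 2.2.1, HTSeq 0.6.1 and build R64 were used; strand setting and handling of multiply matching reads are not given in the sources. FPKM values used the deposited exonic gene sizes and were read to describe levels only. In all, 4 empty lines were not used and 321 genes were at 0 in every library.

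Counts were fitted in R 4.3.3 with edgeR 4.0.16: filterByExpr (6150 genes), TMM, and 1 robust quasi-likelihood model over all 9 libraries (common biological coefficient of variation 0.106, with 6 residual degrees of freedom). Genes of the 2 blocks stayed in the fit. Benjamini-Hochberg adjusted p-values cover all tested genes, threshold 0.05. The fit was tested on simulated data with a common spread for all genes and without raised blocks or a trend by gene length. That test therefore does not cover these features of the real libraries. CPM are counts over TMM-scaled library sizes. Copies were sought with blastn 2.17.0 (at least 90% identity over 50% of the gene). Alternatives used limma 3.58.1 and DESeq2 1.42.0. Of the table's identifiers, 6045 matched the R64 annotation and 6033 had the same start and end.

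The members, the 40 lists (743 entries, 8 matched by synonym) and the rule for named genes were chosen with earlier results of these data known. The rule names DGK1, PAH1, both neighbours of DGK1, MUP1, SAM3, IMD2, all of 3 lists, the 12 largest rises and falls at a mean CPM of at least 10, and the leading genes of each other list. Other genes were chosen after their values were seen. A count of 0 allows up to 3 counts, and such floors and intervals cover counting error only. Replicates all differed by more than sampling noise.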

Additional observations from a re-analysis of the deposited data

Results flagged for a closer look

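The 118 genes of the blocks left out above showed a signal outside the comparison. The 44 genes on chromosome III had a median log2 fold change (dgk1Δ minus WT) of 1.02, with all 41 tested genes positive and 33 called, against a median of -0.02 for pah1Δ minus WT. The 74 genes on chromosome IX had a median of 0.91, with all 63 tested genes positive and 51 called, against 0.00 for pah1Δ minus WT.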

How the results depend on the processing

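No value of a called gene changed sign under the alternatives run (0 of 607). Among named genes that were not called, 18 values in 8 genes changed sign, all close to 0. SPO7 gave -0.00556 with RLE size factors and -0.00625 with DESeq2, DPP1 0.00247 with library size only, and APP1 -0.0118 with the length trend removed and -0.0108 with the replicate block added to that. When 1 library was left out, SPO7 ranged from -0.0464 to 0.0807, DPP1 from -0.0837 to 0.0451, APP1 from -0.0118 to 0.0452, SUL2 from -0.0769 to 0.236, SAM4 from -0.00196 to 0.14, GUK1 from -0.194 to 0.0961, APQ12 from -0.255 to 0.0779 and RPL20B from -0.14 to 0.0457; leaving out WT replicate 1 changed the sign of all of these other than SPO7. Of the 607 values of called genes, 129 no longer passed the threshold, and 26 of 1313 values of genes not called did. Against 34 genes called (17 higher, 17 lower) and 15 list members called, the counts were 21 called and 7 higher with only the 2 groups, 22 and 8 without the genes of the blocks, and 21 and 6 (9 list members) at an adjusted p under 0.01. With a fold of at least 2 they were 12 called, 6 higher and 6 lower. Removing the length trend gave 85 called, 35 higher, 50 lower and 31 list members, and the replicate block with the length trend removed gave 60, 29, 31 and 28. DESeq2 gave 69, 31, 38 and 29. The replicate block alone gave 26 called, of which 25 were among the 34, with 11 higher. Same-numbered libraries had correlations of deviations of 0.0271, 0.553 and -0.424, and not every library correlated best with its own number. The deviations also followed gene length, with Spearman's rho of -0.137, 0.535 and -0.428 in dgk1Δ replicates 1, 2 and 3. In WT replicates 1, 2 and 3 it was -0.745, 0.694 and 0.605. These correlations therefore cannot tell whether same-numbered libraries shared a batch. Leaving out 1 library in turn gave 18 to 75 called, 6 to 51 higher, 12 to 24 lower and 9 to 26 list members, the highest counts without WT replicate 1. For dgk1Δ minus pah1Δ, computed under alternatives after the data were seen, 1451 called became 2221 with the length trend removed and 939 to 955 when 1 dgk1Δ library was left out. The cause was not tested. The median over all genes stayed within 0.03 of 0 under each scaling. The low counts of ARR2, ARR3, IMD1 and YNR075C-A limit their precision.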
